A study of Mus musculus with 6 samples.

Results

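The enzymes that hydroxylate and crosslink collagen, with the chaperone that folds it, were read in Axin2+/GFP+ and Axin2-/GFP- cells of the mouse calvarial suture. The group was set by name: the lysyl oxidases Lox, Loxl1, Loxl2 and Loxl3, the prolyl hydroxylase subunits P4ha1, P4ha2 and P4ha3, the lysyl hydroxylases Plod1 and Plod2, and the chaperone Serpinh1, which makes 10 genes. Of these, 9 had an array feature that carries 1 gene symbol, out of 19938 such genes in all. The feature of Loxl2 also carries a predicted gene, so Loxl2 was not analysed here. Each of the other 9 was read by a single feature.

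All mice carried the Axin2rtTA and TRE-H2BGFP transgenes on a mixed background of C57BL/6J, CD-1 and B6CBAF2, and both sexes were used in the study. Expression of rtTA follows Axin2, and doxycycline, given to both groups from P25 to P28, switches on a histone-GFP fusion in those cells. Suture mesenchyme was digested with 0.2% collagenase at P28 and sorted by GFP intensity alone into Axin2+/GFP+ cells (called Axin2+/GFPhi in the study) and Axin2-/GFP- cells. There were 3 samples of each population, labelled as biological replicates, with 1 array per sample and cells of 6 to 8 mice in each. The GFP-negative population therefore held every digested cell without the reporter, and with RNA of sorted pools, fewer cells of a type and less RNA per cell cannot be told apart.

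Fibrillar collagen is modified before and after it leaves the cell. In the endoplasmic reticulum, prolyl hydroxylases, tetramers of P4ha and P4hb subunits, stabilise the triple helix, lysyl hydroxylases modify lysines that later take part in crosslinks, and Serpinh1, also called HSP47, binds the folded procollagen. Outside the cell, copper-dependent lysyl oxidases turn lysines and hydroxylysines into aldehydes from which crosslinks form, and bone, which is largely type I collagen, relies on each of these steps.

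Several of these genes, P4ha1 and P4ha2 among them, are known to respond to hypoxia through a factor that recognises the motifs ACGTG and GCGTG. The 250 bases upstream of the start site of P4ha1, P4ha2 and Serpinh1 are shown because P4ha1 and P4ha2 held most of the matches among the members and Serpinh1 was the member that passed the test between the populations. RefSeq sequences of this kind (GRCm38.p6) were at hand for 5 of the 10 members. The windows lie at chr10:59323046-59323295 on the plus strand for P4ha1, at chr11:54100674-54100923 on the plus strand for P4ha2 and at chr7:99353240-99353489 on the minus strand for Serpinh1. They are written 5′ to 3′, with capitals marking each match to either motif on either strand.
P4ha1: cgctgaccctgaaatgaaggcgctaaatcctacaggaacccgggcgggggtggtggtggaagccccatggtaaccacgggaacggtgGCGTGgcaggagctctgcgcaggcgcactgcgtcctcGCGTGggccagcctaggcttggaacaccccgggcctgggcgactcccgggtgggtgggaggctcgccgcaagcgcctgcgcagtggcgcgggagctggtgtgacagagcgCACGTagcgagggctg
P4ha2: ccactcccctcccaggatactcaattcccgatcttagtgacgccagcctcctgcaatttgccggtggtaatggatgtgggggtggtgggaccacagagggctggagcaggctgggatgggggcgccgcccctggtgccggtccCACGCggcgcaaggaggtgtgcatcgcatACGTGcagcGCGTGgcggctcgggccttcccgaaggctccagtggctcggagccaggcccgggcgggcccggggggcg
Serpinh1: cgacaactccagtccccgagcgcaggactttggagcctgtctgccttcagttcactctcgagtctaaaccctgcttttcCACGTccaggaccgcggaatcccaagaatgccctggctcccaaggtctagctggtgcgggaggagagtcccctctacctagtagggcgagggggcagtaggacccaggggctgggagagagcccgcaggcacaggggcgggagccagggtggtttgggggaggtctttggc
P4ha1 had 3 matches, which begin 163, 126 and 16 bases upstream of the start, and P4ha2 had 3, which begin 107, 78 and 69 bases upstream. Serpinh1 and Plod1 had 1 match each and P4ha3 had 0. The matches of a gene did not overlap. Of 32851 mouse promoter windows of the same length, 38.6% held at least 1 of the motifs, 16.6% held ACGTG and 28.2% held GCGTG, so a match is common and only describes the letters of the window.

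The distribution of array values differed between the populations, and the cause was not tested. Olfactory and vomeronasal receptor genes, 1194 genes that serve here as a measure of dim features, had a median log2 value of 1.80 in Axin2+/GFP+ and 1.46 in Axin2-/GFP- cells and a median log2 change of 0.30. The log2 change is the mean of Axin2+/GFP+ minus the mean of Axin2-/GFP- cells throughout. Over all genes its median was 0.14, and over the 6415 genes with a mean log2 value from 2 to 3, where 5 of the 9 members lay, it was 0.24. It was -0.51 over the 2523 genes from 4 to 5 and -0.57 over the 1719 genes above 5, among which Serpinh1 lay. Axin2 itself differed by 0.55 (standard error 0.19, limma adjusted p = 0.0802), and its groups did not overlap.

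Serpinh1 was higher in Axin2+/GFP+ cells and was the only 1 of the 9 measured genes to pass an adjusted p of 0.05 in limma, against 4.64% of all genes tested in that direction. None was lower, against 11.4% of all genes. At an unadjusted p under 0.05, Serpinh1 and Lox were higher and 0 were lower in limma, against 16.3% and 17.6% of all genes, whereas the methods' t-test called 1 higher and 0 lower before adjustment and 0 after it. The log2 change was above 0 for all 9 genes as deposited, with a median of 0.26, which lay below the median of the dim receptor genes. Centred on those receptor genes, 6 of the 9 turned negative. For 3 of the 9 genes, Lox, Plod2 and Serpinh1, every Axin2+/GFP+ sample lay above every Axin2-/GFP- sample, and 23.1% of all genes did so.

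**Figure D1:**
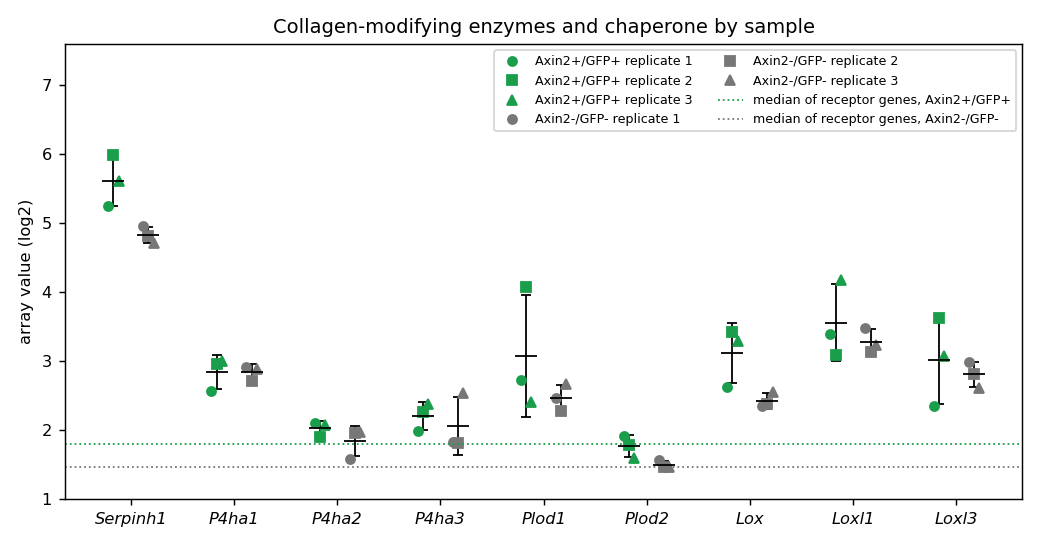
Array values (log2, vertical axis) of the 9 measured genes, with 1 marker per sample, green for Axin2+/GFP+ and grey for Axin2-/GFP- cells, and a bar and whiskers for the mean and SD of 3 samples; dotted lines mark the medians of the receptor genes, 1.80 and 1.46. The populations separate for Serpinh1, Lox and Plod2 and overlap for the other 6, and Plod1 has its highest value, 4.08, in Axin2+/GFP+ replicate 2.

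Serpinh1 had log2 values of 5.25, 5.98 and 5.61 in Axin2+/GFP+ replicates 1, 2 and 3 and of 4.96, 4.81 and 4.72 in Axin2-/GFP- replicates 1, 2 and 3. The lowest Axin2+/GFP+ sample thus lay above the highest Axin2-/GFP- sample. The means were 5.62 ± 0.37 and 4.83 ± 0.12 (SD, n = 3 each), which gave a log2 change of 0.79 (standard error 0.22, 95% interval 0.30 to 1.28, limma adjusted p = 0.0413) and a fold of 1.72. Serpinh1 was the member furthest above the dim receptor genes, 0.0838% of which were at least as bright in Axin2-/GFP- cells. Loxl1 came next, at 1.26% in the same cells. Leaving out any 1 sample but Axin2+/GFP+ replicate 1 ended its call, at log2 changes of 0.60 and 0.79 without Axin2+/GFP+ replicates 2 and 3 and of 0.85, 0.78 and 0.73 without Axin2-/GFP- replicates 1, 2 and 3, and the adjusted p over the alternatives ran from 0.0073 to 0.198. It also ended with an intensity trend, with the replicate number as a block, in the methods' t-test and when every feature was tested (0.79 in each), and after median centring (0.68) and centring on receptor genes (0.47), while quantile normalization (1.22) and cyclic loess (1.23) gave larger changes that passed.

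The 3 genes whose 6 centred log2 values lay nearest to those of Serpinh1 were A530016L24Rik, Lamtor4 and Hsd3b5, with root mean square differences of 0.060, 0.072 and 0.076 on the log2 scale over 6 samples. Their log2 changes were 0.81, 0.80 and 0.68, and only that of A530016L24Rik passed (limma adjusted p = 0.0453, 0.0562 and 0.0778).

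The catalytic subunits of the prolyl hydroxylase showed no detectable difference between the populations. P4ha1, the most widely expressed of them in other tissues, had log2 values of 2.56, 2.96 and 3.004 in Axin2+/GFP+ and 2.92, 2.71 and 2.88 in Axin2-/GFP- replicates 1, 2 and 3. The Axin2-/GFP- samples lay within the range of the Axin2+/GFP+ samples, with a log2 change of 0.0038 (standard error 0.19, 95% interval -0.42 to 0.43, limma adjusted p = 0.989). P4ha2, which is prominent in cartilage and bone cells, had values of 2.10, 1.90 and 2.07 against 1.59, 1.95 and 1.97, where Axin2-/GFP- replicate 1 was the low sample. Its log2 change was 0.19 (95% interval -0.22 to 0.60, limma adjusted p = 0.465). P4ha3, the least abundant subunit in most tissues, had values of 1.98, 2.26 and 2.38 against 1.83, 1.81 and 2.54, so that the highest sample of all was Axin2-/GFP- replicate 3. Its log2 change was 0.15 (95% interval -0.39 to 0.69, limma adjusted p = 0.668). Under centring on receptor genes, cyclic loess and quantile normalization the changes of P4ha1, P4ha2 and P4ha3 were all negative and none passed. P4ha2 and P4ha3 were near the background of the array, since 35.4% and 26.3% of the receptor genes matched or exceeded them in brightness in Axin2+/GFP+ cells.

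P4hb, the partner subunit, which also serves as a general disulphide isomerase, had log2 values of 6.03, 6.44 and 5.98 in Axin2+/GFP+ and 6.17, 5.85 and 5.55 in Axin2-/GFP- cells. The groups overlapped, and the log2 change of 0.29 (standard error 0.22, limma adjusted p = 0.362) did not pass. It is named here for its role in the tetramer, after its values were seen.

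The lysyl hydroxylases did not pass either, and Plod1 turned on a single sample. Plod1, which hydroxylates lysines of the helical part of collagen, had log2 values of 2.73, 4.08 and 2.41 in Axin2+/GFP+ and 2.46, 2.28 and 2.66 in Axin2-/GFP- replicates 1, 2 and 3. Axin2+/GFP+ replicate 2 stood apart, and replicate 3 lay within the Axin2-/GFP- range. The log2 change was 0.61 (standard error 0.39, 95% interval -0.27 to 1.48, limma adjusted p = 0.290), and it was 0.10 without Axin2+/GFP+ replicate 2.

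Plod2, which acts on lysines at the ends of the chains, had log2 values of 1.91, 1.78 and 1.59 against 1.56, 1.46 and 1.47. The groups did not overlap, but the gap between the nearest samples was small and 52.3% and 47.6% of the receptor genes matched or exceeded it in brightness in Axin2+/GFP+ and Axin2-/GFP- cells, so Plod2 was read at background. Its log2 change of 0.26 (95% interval -0.11 to 0.64, limma adjusted p = 0.285) was smaller than that of 56.8% of the receptor genes and was -0.055 when centred on them. Plod3, the remaining lysyl hydroxylase, which also carries glycosyltransferase activity, had a log2 change of 0.21 (limma adjusted p = 0.451) and is named after its values were seen.

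**Figure D2:**
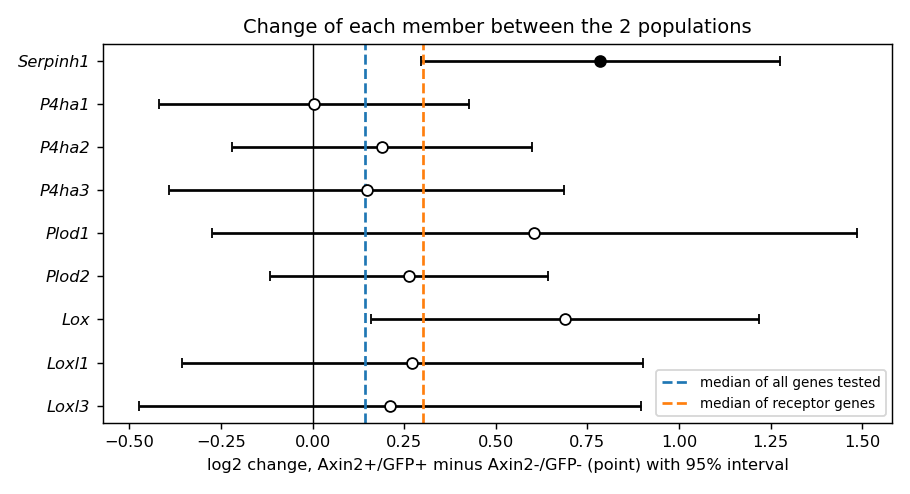
Log2 change between Axin2+/GFP+ and Axin2-/GFP- cells (horizontal axis) of the 9 genes, with whiskers for the 95% interval from limma and a filled point where the adjusted p was under 0.05; dashed lines mark the median change of all genes, 0.14, and of the receptor genes, 0.30. Serpinh1 has the only filled point, and the intervals of Serpinh1 and Lox are the only 2 that lie above 0.

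Among the lysyl oxidases Lox had the largest change. Lox, the main crosslinking oxidase of fibrillar collagen and elastin, had log2 values of 2.62, 3.43 and 3.29 in Axin2+/GFP+ and 2.34, 2.38 and 2.55 in Axin2-/GFP- replicates 1, 2 and 3. The groups did not overlap, although Axin2+/GFP+ replicate 1 lay close to the highest Axin2-/GFP- sample. The means were 3.11 ± 0.43 and 2.42 ± 0.11 (SD, n = 3 each), which gave a log2 change of 0.69 (standard error 0.23, 95% interval 0.16 to 1.22, limma adjusted p = 0.0774) and a fold of 1.61, which did not pass. It passed without Axin2+/GFP+ replicate 1 (log2 change 0.94, limma adjusted p = 0.0152) and with array weights (0.73, adjusted p = 0.0491), and the adjusted p ran up to 0.378 when the arrays were centred on receptor genes (0.37).

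Loxl1, which is known for its part in elastic fibres, had log2 values of 3.40, 3.09 and 4.18 against 3.48, 3.12 and 3.24. Axin2+/GFP+ replicate 3 was high and the other samples overlapped, so that the log2 change of 0.27 (limma adjusted p = 0.494) became -0.038 without that replicate. Loxl3, an oxidase needed for the palate and spine in development, had values of 2.36, 3.63 and 3.07 against 2.99, 2.81 and 2.61. Here Axin2+/GFP+ replicate 1 was the lowest sample of all and replicate 2 the highest, and the log2 change of 0.21 (limma adjusted p = 0.629) became -0.094 without replicate 2.

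Differences between paralogs in their change were asked within each sample. There a shift common to all features of an array cancels, but one that depends on brightness does not. Over the 7 pairs that could be formed within the oxidases, the prolyl hydroxylase subunits and the lysyl hydroxylases, the difference of the log2 changes ran from -0.19 for P4ha1 minus P4ha2 to 0.48 for Lox minus Loxl3. Lox minus Loxl3 had a standard error of 0.23 and an exact permutation p of 0.2 (two-sided, 1 after adjustment over 7 pairs). The other exact p-values ran from 0.6 to 1, and 3 samples against 3 cannot go below 0.1, so unequal change of paralogs was not detectable here.

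The collagen chains that these proteins act on were higher in Axin2+/GFP+ cells. Of 16 measured chains, listed as those of bone and fibrous tissue, 11 were higher and 0 lower in limma, against 4.64% and 11.4% of all genes (13 and 0 before adjustment), with a median log2 change of 0.83. The list also holds Col2a1, Col11a1 and Col11a2, chains known from cartilage, which were among those higher (0.94, 0.68 and 0.87). They are named after their values were seen. Col1a2, a chain of type I collagen, changed by 1.72, and Col1a1, its partner chain, by 1.66 (standard errors 0.21 and 0.24, limma adjusted p = 0.00139 and 0.00286). Col3a1, the type III chain of distensible tissue, changed by 1.95 (adjusted p = 0.00139), and Col6a1, a chain of the microfibrillar type VI, by 1.07 (adjusted p = 0.00713). The 5 that did not pass were Col5a3, Col6a3, Col8a1, Col12a1 and Col14a1, with log2 changes of -0.33, 0.49, -0.24, 0.74 and 0.49, which are named after their values were seen. The number higher was 5 or 6 without any 1 Axin2-/GFP- replicate, 4 when the arrays were centred on receptor genes and 2 in the methods' t-test. Calls fell over all genes as well. There 926 were higher as deposited, and 288, 260 and 239 without Axin2-/GFP- replicates 1, 2 and 3. Over all genes 210 were higher when centred on receptor genes and 211 in the methods' t-test.

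Set against the chaperone within each sample, Col1a1 changed by 0.87 more than Serpinh1 on the log2 scale (standard error 0.25), Col1a2 by 0.94 (0.15) and Col3a1 by 1.17 (0.12). Col3a1 minus Serpinh1 was 2.42, 2.47 and 2.35 in Axin2+/GFP+ replicates 1, 2 and 3 and 1.38, 1.03 and 1.33 in those of Axin2-/GFP-, without overlap. The exact permutation p was 0.1 for each of the 3 pairs, also after adjustment over them, which is the smallest that 3 samples against 3 allow. These pairs were chosen after the values were seen, and a shift that depends on brightness does not cancel in them. The differences kept their sign in each alternative run on them, from 0.67 to 1.35.

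**Figure D3:**
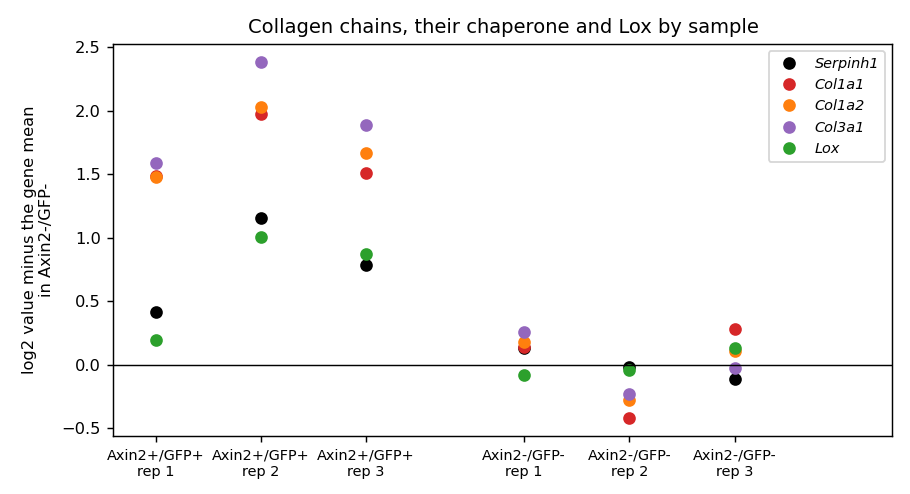
Log2 value of each sample minus the gene's mean in Axin2-/GFP- cells (vertical axis) for Serpinh1, Lox, Col1a1, Col1a2 and Col3a1, with 1 point per gene and sample. In the 3 Axin2+/GFP+ samples the collagen chains lie above Serpinh1 and Lox, with mean changes of 1.66, 1.72 and 1.95 against 0.79 and 0.69.

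Most of the other proteins of collagen modification and processing did not pass the test, and neither did most of all genes. Of 24 measured genes 2 were higher and 2 lower in limma and 20 did not pass, against 4.64% and 11.4% of all genes. Their median log2 change was 0.39, against 0.14 over all genes, and 0.067 when the arrays were centred on receptor genes. P3h1, the prolyl 3-hydroxylase that acts in a complex with Crtap and Ppib, rose by 0.75 on the log2 scale, from 2.35 ± 0.09 to 3.10 ± 0.29 (SD, n = 3 each, limma adjusted p = 0.0339). Like P3h3 below, P3h1 is also named on a feature with several symbols, which was left out. Tll1, a tolloid-like protease that removes the C-propeptide of procollagen, changed by 0.63 (limma adjusted p = 0.0390) but lay at or near background in both populations. Of the receptor genes, 41.4% matched or exceeded it in brightness in Axin2+/GFP+ cells and 63.6% in Axin2-/GFP- cells.

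Colgalt1, which adds galactose to hydroxylysine, fell by 1.49 on the log2 scale. It had log2 values of 3.73, 4.31 and 3.76 in Axin2+/GFP+ and 5.35, 5.04 and 5.88 in Axin2-/GFP- cells, without overlap (standard error 0.26, limma adjusted p = 0.00669). This was the largest change of the 24 in size, and its call ended in the methods' t-test alone. Atp7a, the copper pump that loads lysyl oxidases, had values of 2.41, 2.58 and 2.23 against 2.998, 3.74 and 3.01 and a log2 change of -0.85 (standard error 0.24, limma adjusted p = 0.0438).

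The calls of P3h1, Tll1 and Atp7a were near the threshold. That of P3h1 ended after each of the 4 scalings (log2 change 0.43 to 0.67) and without any 1 sample other than Axin2+/GFP+ replicate 3 (0.59 to 0.80), that of Tll1 after each scaling (0.31 to 0.52) and without any 1 sample other than Axin2+/GFP+ replicate 1 (0.54 to 0.68), and that of Atp7a without any 1 of the 6 samples (-0.97 to -0.60). All 3 calls also ended in the methods' t-test and with every feature tested, that of Tll1 with the replicate block (adjusted p = 0.0711) and that of Atp7a with array weights (adjusted p = 0.0534, both from limma). Nearest to passing were Pcolce, an enhancer of procollagen C-proteinase, with a log2 change of 0.76 (adjusted p = 0.0573), P3h3, a partner of the lysyl hydroxylases, at 0.75 (0.0730), the protease Tll2 at 0.53 (0.0849) and the endoplasmic reticulum channel Tmem38b at 0.47 (adjusted p = 0.124, all from limma). After quantile normalization Pcolce, P3h3 and Tmem38b passed (1.21, 0.93 and 0.84), and after cyclic loess Pcolce and Tmem38b did (1.24 and 0.81). Pcolce also passed with array weights, with the replicate block and with the filter on dim genes, P3h3 without Axin2-/GFP- replicate 2 (1.03) and Tll2 without Axin2+/GFP+ replicate 1 (0.68).

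**Figure D4:**
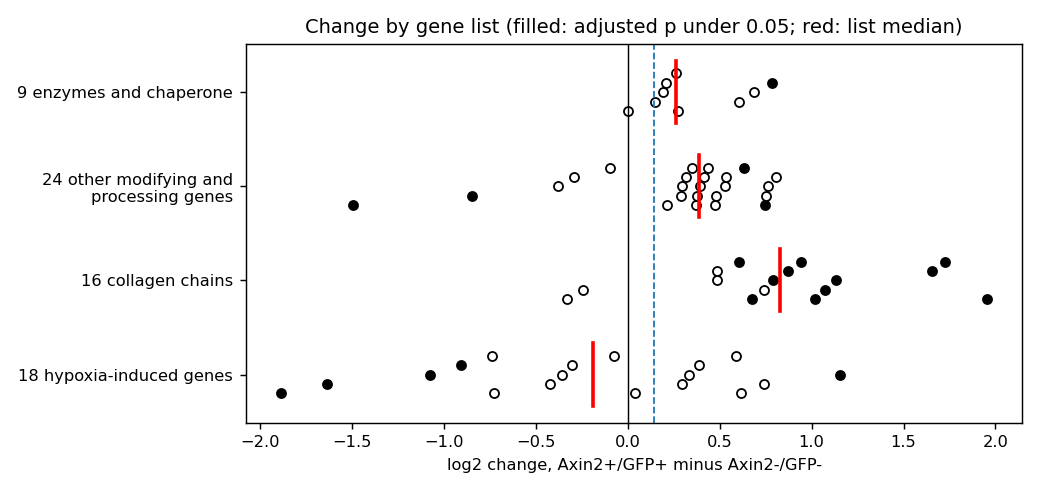
Log2 change between Axin2+/GFP+ and Axin2-/GFP- cells (horizontal axis) for each measured gene of 4 lists, with 1 point per gene, filled where the adjusted p was under 0.05, a red bar at the list's median and a dashed line at the median of all genes, 0.14. The median is 0.26 for the 9 enzymes and chaperone, 0.39 for the 24 other genes, 0.83 for the 16 collagen chains and -0.19 for the 18 hypoxia-induced genes.

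Since several of the enzymes are known targets of the hypoxia response, 18 other genes induced by hypoxia were read beside them. Of these 1 was higher and 4 were lower in limma, against 4.64% and 11.4% of all genes, and their median log2 change was -0.19. The median was 0.36 over the 8 genes left by the filter on dim genes and ran from -0.30 to -0.065 with 1 sample left out. Kdm3a, a histone demethylase, changed by -1.88, Higd1a, a mitochondrial protein, by -1.64 and Pfkfb3, a regulator of glycolysis, by -1.08 (limma adjusted p = 0.000788, 0.00412 and 0.00645). Bnip3, a mitophagy receptor, was the fourth that was lower, at -0.91 (adjusted p = 0.0305), and is named after its values were seen. Ero1a, the oxidase that recharges disulphide isomerases, was the gene that was higher, at 1.15 (adjusted p = 0.00652). P4ha1 and P4ha2, with 3 motif matches each in the windows printed above, had log2 changes of 0.0038 and 0.19. Serpinh1 and Plod1, with 1 match each, had 0.79 and 0.61, and P4ha3, with 0, had 0.15. The changes of P4ha1, P4ha2 and P4ha3 turned negative after quantile normalization and cyclic loess. A response of the enzymes to hypoxia was not tested.

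Some markers of other cells moved with the same sort. In limma 4.64% of all genes were higher and 11.4% lower, and before adjustment 16.3% and 17.6%. The counts of mesenchymal, macrophage and endothelial markers below lay near these shares. Each of 9 B-lineage markers fell in the Axin2+/GFP+ cells, with a median log2 change of -4.64, Ebf1, Cd79b and Blnk foremost (-5.72, -5.28 and -4.89), and all 10 neutrophil markers were higher, with a median of 2.52, among them Ltf, Elane and Mpo (4.30, 2.96 and 1.97). The summed linear signal of the B-lineage markers ran from 65.8 to 82.8 array units in Axin2+/GFP+ and from 1338 to 1778 in Axin2-/GFP- samples, and that of the neutrophil markers from 20051 to 22263 and from 2819 to 9014. Of 10 mesenchymal markers 0 were higher or lower in limma (before adjustment 2 were higher in limma and 0 in the methods' t-test), with Prrx1, Twist1 and Lum at 0.88, 0.77 and 0.65. Of the 10, 2 had changes below 0, Thy1 (-0.63) and Msx1 (-0.028), named after their values were seen, and the summed signal ran from 252 to 438 and from 217 to 346. Of 5 osteoblast markers, 2 were higher, the matrix proteins Ibsp (1.84) and Dmp1 (0.88), with a summed signal of 59.6 to 80.6 against 36.9 to 44.4. The call of Dmp1 ended in 11 alternatives, and the phosphatase Alpl, without overlap between the groups, did not pass (-0.52, limma adjusted p = 0.0739) but was lower and passed after either centring. Of 9 macrophage markers 1 was higher, Lyz2, and 1 lower, Cd68 (1.25 and -1.49), while Csf1r did not pass (-0.60) and the median was 0.042. Their summed signal, 1651 to 2064 against 536 to 1106, was mostly that of Lyz2, at a mean log2 value of 10.80 against 9.55. Of 8 endothelial markers 1 was lower, Pecam1 (-2.23), 5 had changes above 0 and the median was 0.11, with Esam at 0.34 and Cdh5 at -0.34 and a summed signal of 48.5 to 53.6 against 76.7 to 100.2. The difference in this sum was mostly that of Pecam1, at a mean log2 value of 3.22 against 5.45. Vwf, the next brightest in Axin2-/GFP- cells, was at 3.38 against 3.44 and is named after its values were seen. Of 4 platelet markers 1 was lower, Pf4 (-2.57), with Itga2b at 0.35 and Ppbp at -0.97 and a summed signal of 35.0 to 59.4 against 79.1 to 172. The part of these cells in the values of Serpinh1, Colgalt1, Atp7a and the other enzymes was not tested.

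**Figure D5:**
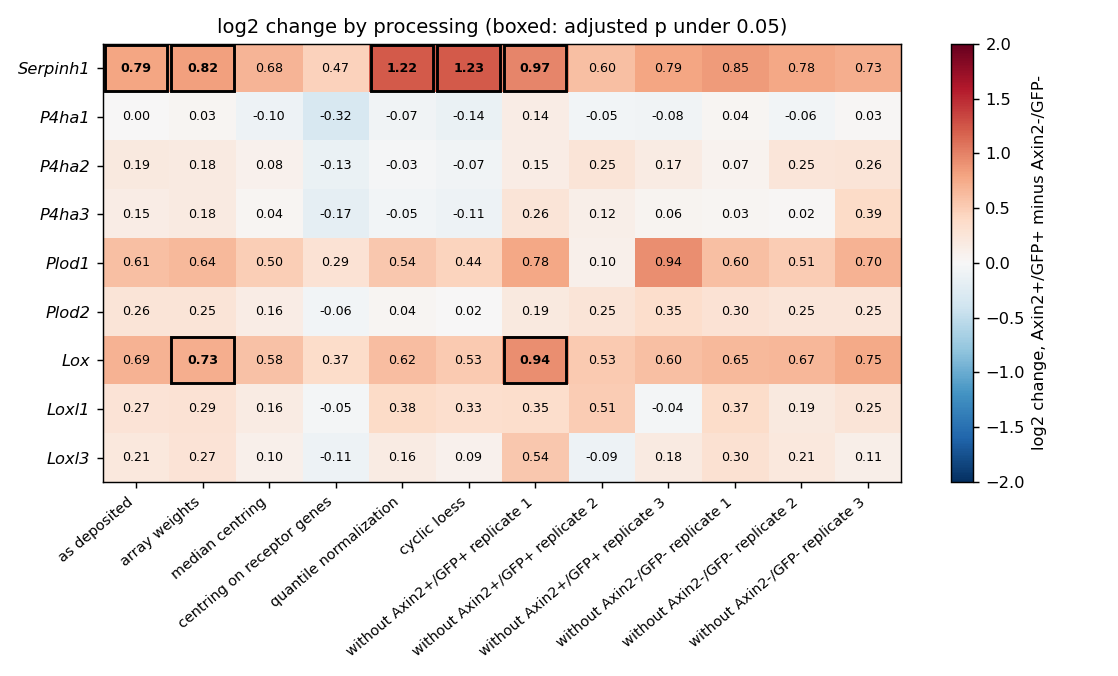
Log2 change between Axin2+/GFP+ and Axin2-/GFP- cells of the 9 genes (rows) as deposited, under 5 other treatments of the arrays and with each sample left out (columns), coloured from blue (negative) to red (positive) and boxed where the adjusted p from limma was under 0.05. Serpinh1 is positive in every column and boxed in 5 of 12, Lox is positive in every column and boxed in 2, and P4ha1 changes sign.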

How the data were processed

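Suture mesenchymal RNA of 3 Axin2+/GFP+ and 3 Axin2-/GFP- samples was labelled for Affymetrix whole-transcript arrays. The values deposited by the authors are log2 expression, 1 per feature and array, made with RMA in R 3.2.1 according to the submitters' processing notes, without a stated summarisation level. They were used unchanged. Of 35557 features 21789 carry 1 gene symbol in the platform's table, 1621 several (left out) and 12147 none. Of 21789 features 21698 were matched to RefSeq by gene identifier, which changed 0 names. The brightest feature stood for each of 19938 genes, 999 of which had several.

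Genes were tested with limma 3.58.1 in R 4.3.3, with Benjamini-Hochberg adjustment over all genes and a threshold of 0.05, against which the methods' two-sided t-test was an alternative. Differences between paralogs were tested by exact permutation, two-sided, over the 6 samples. The text names the 10 members, the called and the next 4 genes of the list of other modifying genes, up to 4 of the collagen and hypoxia lists, up to 3 of each marker list and the 3 genes nearest to a called member; others are said to be chosen after their values were seen. Members and lists were chosen with earlier results of these data known. Alternatives were an intensity trend, array weights, the replicate block, median centring, centring on receptor genes, quantile normalization, cyclic loess, a minimum mean log2 value of 4, the mean of features, every feature tested and leaving out each sample.

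Data were simulated for the Axin2+/GFP+ against Axin2-/GFP- comparison over 19938 genes, with 50 genes changed at each size. Limma recovered 0% of those changed by 0.5 on the log2 scale, 38.0% at 1, 78.0% at 2 and 98.0% at 4. Only these genes were changed, a smaller share than the 16.0% called in the data, so the rates need not hold for the data. Precision is limited by the number of arrays.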

Additional observations from a re-analysis of the deposited data

How the results depend on the processing

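Changes are log2 and counts are genes at an adjusted p under 0.05 in limma unless stated. Of the 9 enzymes and chaperone, 1 was higher; 0 were with an intensity trend, in the methods' t-test, with the replicate block, after median centring, after centring on receptor genes and with every feature tested, 2 with array weights, and 0 to 2 with 1 sample left out. The number lower stayed 0 in each alternative. Of the other modifying and processing genes, 2 were higher and 2 lower; 0 were higher in the methods' t-test, after either centring and with every feature tested, 1 with the filter on dim genes and 0 to 4 with 1 sample left out, and the number lower was 0 in the methods' t-test, 1 with array weights, with the filter and with every feature tested, 4 when centred on receptor genes and 1 to 1 with 1 sample left out. Of the collagen chains 11 were higher; 2 were in the methods' t-test, 4 when centred on receptor genes, 6 with every feature tested and 5 to 10 with 1 sample left out, and 1 was lower when centred on receptor genes, against 0. Of the hypoxia-induced genes 1 was higher and 4 lower; 0 were higher in the methods' t-test, 2 with array weights, 3 after quantile normalization, 4 after cyclic loess and 1 to 2 with 1 sample left out, and 1 was lower in the methods' t-test and with the filter on dim genes. The filter left 1 of the 9 enzymes and chaperone, Serpinh1.

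The sign turned for P4ha1 after median centring (-0.10), centring on receptor genes (-0.32), quantile normalization (-0.071) and cyclic loess (-0.14) and with 1 sample left out (-0.078 to 0.14). Centred on receptor genes it turned for Loxl1 (-0.047), Loxl3 (-0.11), P4ha2 (-0.13), P4ha3 (-0.17) and Plod2 (-0.055), after quantile normalization for P4ha2 (-0.027) and P4ha3 (-0.049) and after cyclic loess for the same genes (-0.067 and -0.11). With 1 sample left out, Loxl1 ran from -0.038 to 0.51 and Loxl3 from -0.094 to 0.54. For the differences between paralogs the ranges were -0.22 to 0.60 for Loxl1 minus Loxl3, -0.36 to 0.013 for P4ha1 minus P4ha3, -0.13 to 0.23 for P4ha2 minus P4ha3 and -0.15 to 0.59 for Plod1 minus Plod2. The cause of these shifts was not tested. The median change over all genes was 0.14 as deposited (926 genes higher and 2265 lower). It was 0.033 with median centring (459 and 2719), 0.059 with quantile normalization (768 and 1266), 0.011 with cyclic loess (785 and 1468) and -0.18 with centring on receptor genes (210 and 3980).

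Same-numbered samples of the groups share a number in their titles, which do not say whether they came from the same pool. Their deviations from the group means correlated at 0.031, 0.011 and 0.053 over all genes, against -0.050 to 0.017 for samples of unlike number. Not every sample correlated best with its own number, and these values cannot tell whether the samples were paired. With the replicate block 643 genes were higher and 2201 lower.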

Other observations

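Axin2+/GFP+ replicate 2 held the highest value of its group for 13 of the 16 collagen chains, for 14 of the 24 other modifying and processing genes and for 4 of the 9 enzymes and chaperone (P4ha3, P4ha1 and Loxl1 were highest in replicate 3, and P4ha2 and Plod2 in replicate 1), against 34.6% of all genes. Axin2+/GFP+ replicate 1 held the lowest value for 13 of the 16 chains, 12 of the 24 other genes and 5 of the 9 enzymes and chaperone, against 38.1% of all genes. Genes of one list share their samples, so these counts are given without a test.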
